A study of Mus musculus with 6 samples.

Results

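Replication-dependent histone genes encode the histones that package newly made DNA. They were taken as every gene of the deposited expression table whose symbol begins with Hist1h, Hist2h, Hist3h or Hist4h or carries a newer name of the same kind (an H1, H2ac, H2bc, H3c or H4c symbol with a number). This gave 68 genes of the 24011 in the table, made up of 6 linker histone H1 genes, 18 H2A, 19 H2B, 12 H3 and 13 H4 genes. The H2B genes include Hist3h2bb-ps, whose symbol marks a pseudogene. It stood at 6.46 to 18.0 FPKM, was tested and enters the H2B sums. A further name check with RefSeq supplied 8 of their 72 transcripts, which the table lists without a symbol, and 5 of the 68 genes rest on those transcripts alone. RefSeq placed 54 of the genes on chromosome 13, 10 on chromosome 3, 2 on chromosome 11 and 1 on chromosome 6 (GRCm38). Genes are given by their RefSeq symbols, with the deposited name in brackets at first mention.

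H2A, H2B, H3 and H4 form the protein core of the nucleosome, and H1 binds the DNA between nucleosomes. The mRNAs of these genes are made mainly during S phase, when chromatin is copied, and in most of them the 3′ end is a short stem-loop in place of a poly(A) tail. Lymphocytes in the resting state divide little, and stimulation through the T cell receptor brings them into the cell cycle.

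The 6 libraries were made from total RNA of CD4 T cells of C57BL/6 mice, sorted from lymph nodes and spleens. They comprised naive cells (CD4+ CD62L+ CD25-), natural regulatory T cells frozen directly after sorting (fresh nTreg, CD4+ CD62L+/- CD25 high) and nTregs activated on immobilised anti-CD3 (2 µg/ml) with anti-CD28 in solution (2 µg/ml) and 100 U/ml of IL-2. Each population came from wild type (WT) and from YAP cKO mice (YAP flox/flox, CD4-Cre+), in which Cre under the CD4 promoter removes YAP, a co-activator of the Hippo pathway, from T cells. Each of the 6 groups held 1 library, and the number of mice behind it is not stated in the labels. The length of stimulation is given as 24 h in one part of the labels and as 48 h in another, so it is not settled. Ribosomal RNA was depleted and no poly(A) selection was described, so mRNAs that end in a stem-loop could be sequenced.

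Yap1, the deleted gene, was listed at 0 FPKM in the 4 libraries of naive cells and fresh nTregs. It was 0.169 FPKM in WT and 0.235 FPKM in cKO stimulated nTregs, so its RNA gave no support to the genotype labels. The columns headed YKP were read as cKO by elimination, since the others are headed WT, and every genotype direction below rests on that reading. The summed FPKM of the 4 Treg markers was 42.7 to 48.4 in naive cells and 753 to 969 in nTregs. Markers of B cells, CD8 T cells, NK cells, myeloid cells and erythroid cells summed to at most 8.90 FPKM per list in any library, the highest being the CD8 list, in which Cd8a was at most 0.362. Each library's value of 10 FPKM on a 480 nt transcript stood on an estimated 22.4 to 28.8 fragments.

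The stem-loop was searched in the annotated transcripts because it is the sequence that sets these mRNAs apart from others. The motif searched was GG, 3 free bases, TT, 1 free base, T, 1 free base, AG, 2 free bases and CC. Read within 100 bases after the stop codon on the transcript strand, it was present in 46 of the 51 members that have at least 46 annotated bases there. It was present in 22 of 20846 other coding genes (0.106%). The stem-loop began 21 to 58 bases after the stop codon, with a median of 31. The 46 genes carried 8 distinct versions of its 16 bases, and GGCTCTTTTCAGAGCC was the version in 26 of them. The 5 searched members without it were H1f1 (Hist1h1a), H2bc4 (Hist1h2bc), H2bc21 (Hist2h2be), H2bc23 and the gene that RefSeq names H4bc24 (Hist1h2bq/Hist1h2br, an H2B gene). H1f1 has only 48 annotated bases after the stop codon, so its annotation may end before a stem-loop. Stem-loops of abundant genes (H1f2, H4c4), of genes called for genotype (H2bc12, H3c8) and of H4c9, the gene furthest apart between genotypes in both nTreg states, follow, with 5 flanking bases on each side, from GENCODE M21 transcripts and with the stem-loop in capitals.
H1f2: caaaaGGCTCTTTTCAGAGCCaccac
H2bc12: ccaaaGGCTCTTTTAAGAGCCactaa
H3c8: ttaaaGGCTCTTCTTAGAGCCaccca
H4c4: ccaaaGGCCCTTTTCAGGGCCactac
H4c9: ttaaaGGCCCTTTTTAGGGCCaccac

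Promoters were taken from RefSeq (GRCm38.p6) as 250 bases before to 50 bases after the start, and 63 promoters of 62 member genes were found. The octamer ATTTGCAT, on either strand, was present in 22.2% of member promoters and in 1.7% of all 32851 promoters. It was found in 7 of 18 H2A and 7 of 17 H2B promoters and in none of the 28 promoters of H1, H3 and H4 genes. Windows of neighbouring H2A and H2B genes overlap, so promoters and not distinct sites are counted for each motif. H2ac1 and H2bc1, H2ac8 and H2bc8, and H2ac12 and H2bc12 each hold the same octamer, read on opposite strands. CCAAT was present on either strand in every H1, H2A, H2B and H3 promoter and in 3 of 12 H4 promoters, against 37.4% of all promoters. TATAAA was present in 55.6% of member promoters and in 13.6% of all. The promoters of the 4 genes whose level passed the genotype test below are shown with these motifs in capitals. TTTATA and ATTGG are TATAAA and CCAAT on the other strand. A match to letters describes the sequence and is no evidence of binding.
H2bc13 promoter, chr13:21716134-21716433, minus strand: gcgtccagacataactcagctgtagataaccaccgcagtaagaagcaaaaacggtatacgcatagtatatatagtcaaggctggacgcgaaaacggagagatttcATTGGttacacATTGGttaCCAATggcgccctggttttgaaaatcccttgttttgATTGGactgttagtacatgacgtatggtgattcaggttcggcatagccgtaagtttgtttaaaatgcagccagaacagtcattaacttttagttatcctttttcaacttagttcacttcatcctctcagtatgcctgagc
H2bc12 promoter, chr13:22035571-22035870, plus strand: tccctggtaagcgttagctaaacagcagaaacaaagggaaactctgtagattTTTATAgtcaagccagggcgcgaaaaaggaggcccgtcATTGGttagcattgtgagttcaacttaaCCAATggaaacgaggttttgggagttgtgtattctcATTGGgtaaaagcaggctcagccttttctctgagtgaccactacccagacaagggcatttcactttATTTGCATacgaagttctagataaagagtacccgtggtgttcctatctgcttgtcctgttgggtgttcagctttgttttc
H3c8 promoter, chr13:23535168-23535467, plus strand: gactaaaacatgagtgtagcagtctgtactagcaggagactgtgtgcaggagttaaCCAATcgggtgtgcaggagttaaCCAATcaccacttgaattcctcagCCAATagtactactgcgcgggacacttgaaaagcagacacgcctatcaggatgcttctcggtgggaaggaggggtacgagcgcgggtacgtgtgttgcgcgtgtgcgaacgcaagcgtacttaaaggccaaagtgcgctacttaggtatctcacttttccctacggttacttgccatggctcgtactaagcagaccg
H2bc15 promoter, chr13:21753826-21754125, plus strand: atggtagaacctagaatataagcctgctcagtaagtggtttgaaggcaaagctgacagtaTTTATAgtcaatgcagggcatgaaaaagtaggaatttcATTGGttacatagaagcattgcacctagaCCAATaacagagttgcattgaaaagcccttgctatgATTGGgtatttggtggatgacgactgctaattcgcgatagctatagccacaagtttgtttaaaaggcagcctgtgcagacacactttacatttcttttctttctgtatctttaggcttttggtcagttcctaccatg

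Histone RNA was lowest in naive cells and highest in stimulated nTregs, and in each population the cKO library held more of it than the WT library. The deposited unit is FPKM (fragments scaled by transcript length and library depth), and in naive cells the 68 genes summed to 1595 FPKM (WT) and 1807 FPKM (cKO). The sum was 2017 in WT and 2640 in cKO fresh nTregs, and 3235 in WT and 5983 in cKO stimulated nTregs. The cKO sum was thus 1.13, 1.31 and 1.85 times the WT sum in naive, fresh and stimulated cells. With 1 library per group there is no test of these ratios. On the log2 scale they were 0.18, 0.39 and 0.89, and the 95% intervals from counting alone were ± 0.0603, ± 0.0485 and ± 0.0389. In bulk RNA, more cells in cycle and more histone RNA per cell cannot be told apart.

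Within each genotype the sums of all 5 classes were lowest in naive cells and highest after stimulation. H4, the most abundant class, summed to 580, 753 and 1236 FPKM in WT naive, fresh and stimulated cells and to 710, 896 and 2355 in cKO. H2B summed to 410, 529 and 969 in WT and to 451, 755 and 1821 in cKO. H1 summed to 339, 447 and 638 in WT and to 367, 621 and 1090 in cKO. H2A differed least between naive and fresh cells, with 192 and 199 FPKM in WT and 198 and 240 in cKO, and reached 270 and 460 after stimulation. H3 had the lowest sums, 74.5, 89.3 and 120 in WT and 80.4, 128 and 257 in cKO. The ratio of cKO to WT in stimulated nTregs lay between 1.70 for H2A and 2.13 for H3. In naive cells the cKO excess lay within the counting interval for H2A, H2B and H3. The H3 sum was 3.72% to 4.84% of the histone FPKM and the H4 sum 33.9% to 39.4%. H3c14 and H3c15 were listed at 0, and every 50-base stretch of their coding sequences also occurs in another gene. The part of this in the H3 sum was not tested.

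**Figure D1:**
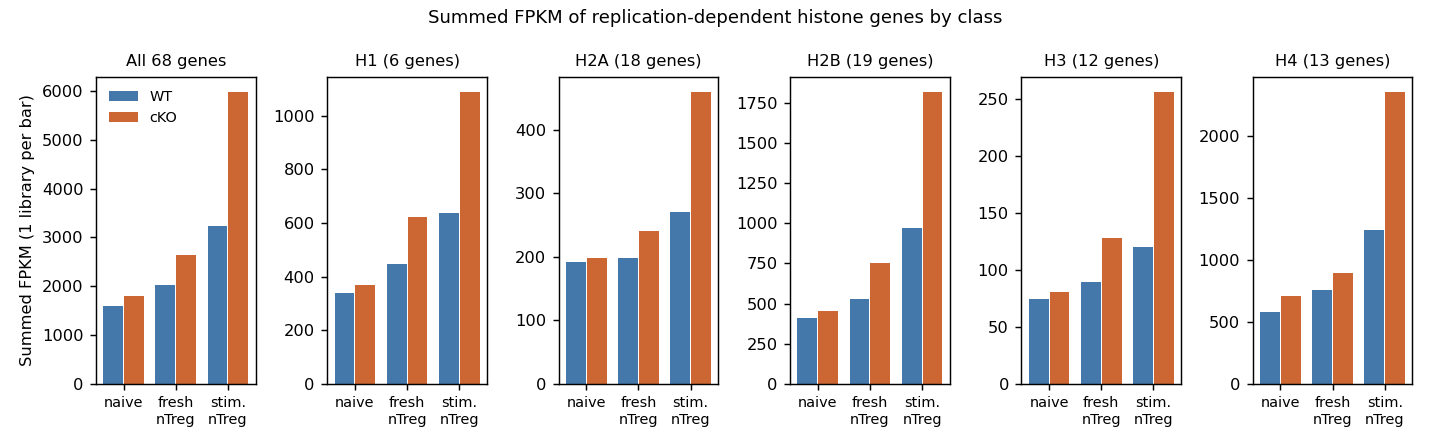
Summed FPKM of all 68 histone genes and of each class in naive CD4 T cells, fresh nTregs and stimulated nTregs (horizontal axis), with 1 bar per library, WT in blue and cKO in orange, on a linear axis that starts at 0 and differs between panels. The cKO bar exceeds the WT bar in every panel and population, and the all-gene bars reach 5983 FPKM in cKO stimulated nTregs.

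A few genes held much of each class. H1f2 (Hist1h1c), a linker histone gene, stood at 261 FPKM in WT and 277 in cKO among naive cells, at 294 and 384 among fresh nTregs and at 255 and 448 after stimulation. It made up 76.9% of the H1 sum in WT naive cells and 40.0% in WT stimulated nTregs. H1f4 (Hist1h1e) went from 39.7 and 42.7 in naive cells to 76.0 and 103 in fresh and 190 and 260 in stimulated nTregs, WT first. The most abundant H4 gene, H4c4 (Hist1h4d), stood at 138 and 179, 167 and 197, and 428 and 571 FPKM in the same order, followed by H4c3 (Hist1h4c), with 135 to 242 FPKM over the 6 libraries, and H4c8 (Hist1h4h), with 60.7 to 284. Among H2B genes H2bc18 (Hist2h2bb) was highest, with 127 and 155, 115 and 187, and 286 and 492, before H2bc6 (Hist1h2be), with 100.2 to 312, and H2bc3 (Hist1h2bb), with 18.7 to 222. The leading H2A genes were H2ac20 (Hist2h2ac), at 43.1 to 128 FPKM, H2aw (Hist3h2a), at 41.8 to 85.8, and H2ac15 (Hist1h2ak), at 14.2 to 76.9. No H3 gene exceeded 49.4 FPKM, the value of H3c6 (Hist1h3e) in cKO stimulated nTregs, where H3c11 (Hist1h3i) stood at 45.6 and H3c1 (Hist1h3a) at 36.9.

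At the other end, 11 members stayed below 1 FPKM in all libraries, 6 of them listed at 0 throughout. In 9 of these 11, H2ac18, H2ac19, H2ac23, H2ac24, H2bc23, H4bc24, H3c14, H3c15 and H4c18, every 50-base stretch of the coding sequence also occurs in another gene, and the part of this in their low values was not tested. The other 2 were the testis histones H1f6 (Hist1h1t), at most 0.187 FPKM, and H2ac1 (Hist1h2aa), at 0 in all libraries. Another testis histone, H2bc1 (Hist1h2ba), was at 0 in the 4 unstimulated libraries and 1.04 and 0.405 FPKM in WT and cKO stimulated nTregs, where 3 fragments on a 480 nt transcript give 1.04 to 1.34 FPKM. The limma tests below covered the 55 members with at least 1 FPKM in at least 2 libraries, 5 of H1, 13 of H2A, 16 of H2B, 9 of H3 and 12 of H4. The other 13 were not tested.

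**Figure D2:**
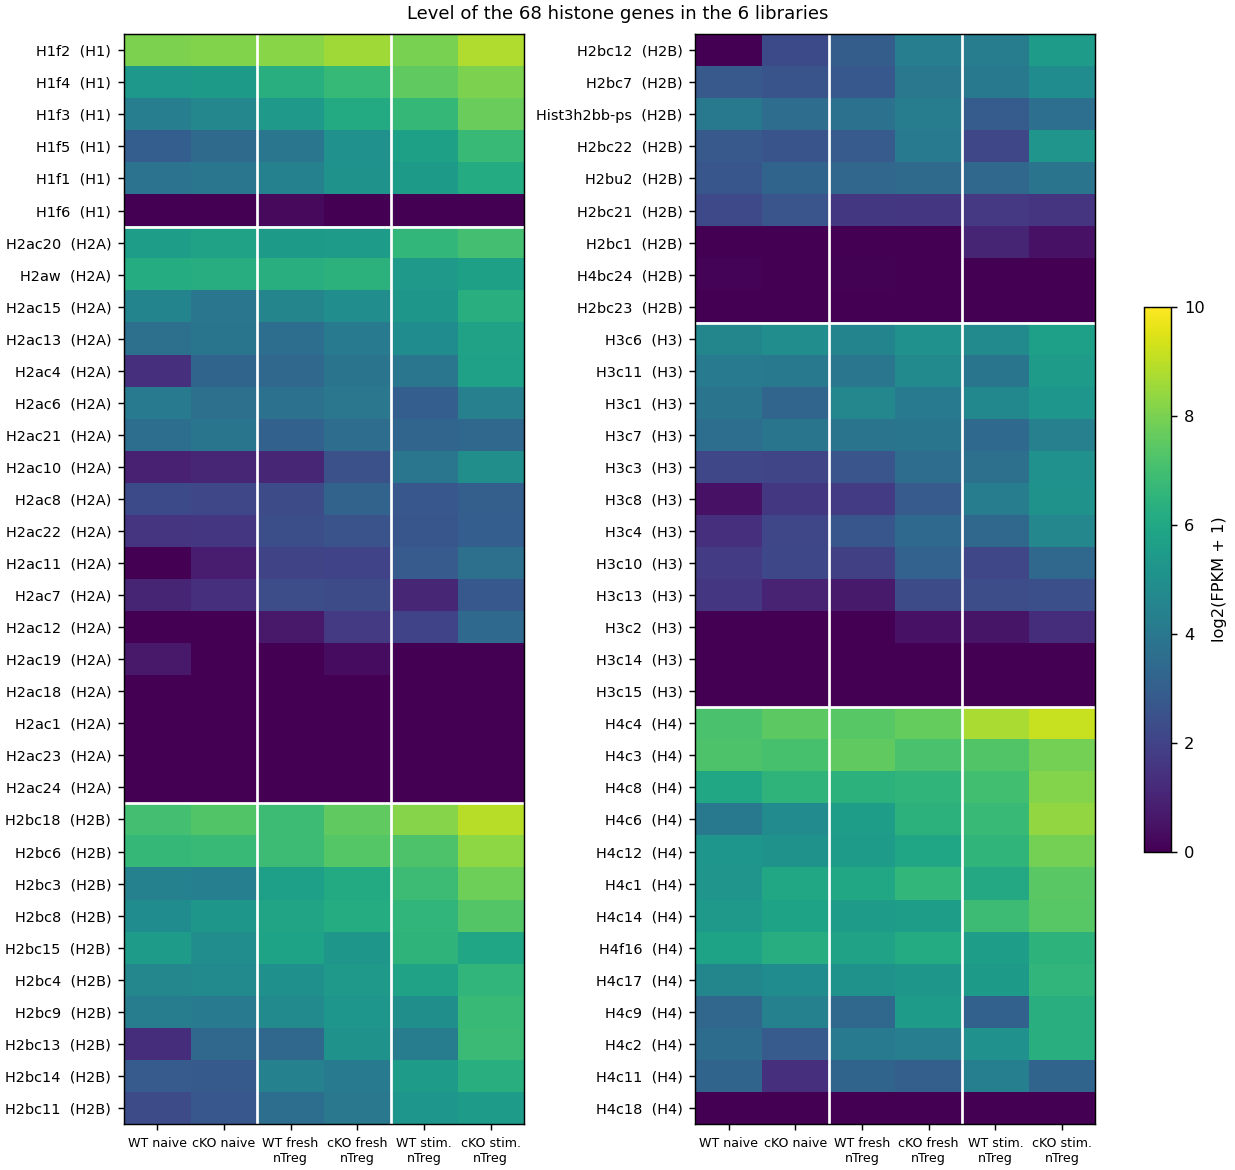
Level of the 68 genes (vertical axis, by class and within a class by mean level) in the 6 libraries (horizontal axis), as log2(FPKM + 1) from 0 (dark) to 10 (yellow). H1f2, H2bc18 and H4c4 are the brightest rows of their classes, the last column (cKO stimulated nTreg) is the brightest, and genes at or near 0 form the dark rows at the end of each class.

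Stimulated nTregs held more RNA of most histone genes than fresh nTregs. limma was fitted to log2(FPKM + 1) over all 11224 genes tested, with population and genotype as terms. Its p-values were adjusted by Benjamini-Hochberg. With 1 library per group, its error is the departure of the libraries from the sum of these terms. That is how far the genotype difference varied over the 3 populations, and it holds no spread between replicates or mice. After stimulation 31 of the 55 members rose and 1 fell, where 22.5% of all tested genes rose and 27.3% fell. The members' median log2 difference was 0.95, against -0.05 for all genes. By class, 4 of 5 H1, 7 of 13 H2A, 10 of 16 H2B, 3 of 9 H3 and 7 of 12 H4 genes rose. With every library rescaled to the same FPKM sum the median of all genes moved to 0.47 and that of the members to 1.51. In that setting 48 members were called higher, where 6724 of 11373 genes were called higher and 1022 lower. The rescaling thus raised the number of all genes called higher as well.

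The H2A gene H2ac10 (Hist1h2af) had the largest rise, from 1.08 FPKM (WT) and 4.54 (cKO) in fresh nTregs to 14.1 and 29.8 after stimulation (log2 difference 2.67, SE 0.28, limma adjusted p = 0.000912). H3c8 (Hist1h3g), an H3.1 gene, went from 2.32 and 6.29 to 17.3 and 33.2 (2.34, SE 0.12, limma adjusted p = 0.000121). In both genes the 2 stimulated libraries lay above the 4 unstimulated ones. H1f5 (Hist1h1b) went from 14.3 and 32.1 to 51.0 and 105 FPKM (1.72, SE 0.16, limma adjusted p = 0.000592). H2bc11 (Hist1h2bj) went from 11.2 and 14.9 to 36.8 and 45.1 (1.59, SE 0.092, limma adjusted p = 0.000152). H4c4 rose by 1.44 (SE 0.082, limma adjusted p = 0.000141), and H4c14 (Hist2h4) went from 43.4 and 48.3 to 114 and 167 FPKM.

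The other genes that rose, with log2 differences of 0.67 to 1.65, were H1f1, H1f3 (Hist1h1d) and H1f4, the H2A genes H2ac4 (Hist1h2ab), H2ac11 (Hist1h2ag), H2ac12 (Hist1h2ah), H2ac13 (Hist1h2ai), H2ac15 and H2ac20, and the H2B genes H2bc3, H2bc4, H2bc7 (Hist1h2bf), H2bc8 (Hist1h2bg), H2bc12 (Hist1h2bk), H2bc13 (Hist1h2bl), H2bc14 (Hist1h2bm), H2bc15 (Hist1h2bn) and H2bc18. They also included the H3 genes H3c3 (Hist1h3c) and H3c4 (Hist1h3d) and the H4 genes H4c2 (Hist1h4b), H4c6 (Hist1h4f), H4c8, H4c12 (Hist1h4k) and H4c17. H2aw, an H2A gene of chromosome 11, fell, from 75.4 and 85.8 FPKM to 41.8 and 50.9 (-0.79, SE 0.087, limma adjusted p = 0.00103). Every 50-base stretch of its coding sequence is also annotated in transcripts of Trim17, which is no histone gene, and the part of Trim17 in its values was not tested. H1f2 did not pass the test (0.01, limma adjusted p = 0.969), with 294 and 255 FPKM in WT and 384 and 448 in cKO.

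Fresh nTregs held more histone RNA than naive cells, to a lesser degree. In the same limma fit 19 of 55 members were higher in fresh nTregs and 1 was lower, where 16.5% of all genes were higher and 14.7% lower. The members' median was 0.56, against -0.02 for all genes, and became 0.97 without the WT naive library and 0.24 without the cKO naive library. H2bc12, which encodes an H2B, was listed at 0 in WT naive cells and was 3.70 FPKM in cKO naive cells, against 6.79 and 18.4 in fresh nTregs (2.504, SE 0.24, limma adjusted p = 0.00104). H2bc13 went from 1.503 and 9.37 FPKM in naive cells to 9.06 and 33.8 in fresh nTregs (1.88, SE 0.19, limma adjusted p = 0.00118). H2bc11, with 4.04 and 5.58 FPKM in naive cells and 11.2 and 14.9 in fresh nTregs, was higher by 1.27 (SE 0.092, limma adjusted p = 0.00035). Taken by genotype and without a test, 12 of 54 members were at least 2-fold higher in WT fresh nTregs than in WT naive cells, where 7.07% of all genes were, and none was lower, where 1.87% were. In cKO 24 of 55 were higher, where 7.61% were, and H2bc21 was lower, where 2.14% were. Counting any difference above 0, 42 of 54 members were higher in WT, where 47.1% of all genes were, and 49 of 55 in cKO, where 46.6% were.

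The other genes higher in fresh nTregs were H1f1, H1f3, H1f4 and H1f5, the H2A genes H2ac4, H2ac11, H2ac12 and H2ac22 (Hist1h2an), and the H2B genes H2bc3, H2bc8, H2bc14 and H2bc15. The H3 genes H3c4 and H3c8 and the H4 genes H4c1 (Hist1h4a) and H4c6 were also higher, and all of these 16 differences lay between 0.34 and 1.63. H2bc21 was lower, with 3.65 and 5.19 FPKM in naive cells and 2.04 and 1.98 in fresh nTregs (-0.84, SE 0.17, limma adjusted p = 0.0157). It encodes an H2B variant known in the mouse from olfactory neurons. H4c4 was 138 and 179 FPKM in naive cells and 167 and 197 in fresh nTregs, which did not pass the test (limma adjusted p = 0.112). Which members were called changed with the library left out, and so did the number of all genes called. The members' median was 0.62 without the WT fresh library, 0.60 without the cKO fresh library and 0.56 without either stimulated library. In the same order the median of all genes was -0.04, -0.01 and -0.03.

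In the cKO libraries most histone genes stood above their WT counterparts, and a few passed the test over the 3 populations. The limma estimate of cKO minus WT was above 0 for 52 of the 55 members, where 53.8% of all genes were above 0. At the adjusted threshold 3 members rose and 1 fell with the cKO genotype, where 0.258% of all tested genes rose and 0.116% fell. At an unadjusted p under 0.05, 34 members were higher, where 7.64% of all genes were. The members' median estimate was 0.52, against 0.01 for all genes. The direction was shared by 5 of 5 H1, 13 of 13 H2A, 15 of 16 H2B, 8 of 9 H3 and 11 of 12 H4 genes.

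H2bc13, an H2B gene at one end of the chromosome 13 cluster, had the largest estimate. It stood at 1.503 FPKM in WT and 9.37 in cKO among naive cells, at 9.06 and 33.8 among fresh nTregs and at 17.7 and 112 after stimulation, on an estimated 3.4, 25.0, 25.5, 89.3, 38.8 and 315.2 fragments. Each cKO value lay above the WT value of its population, and the estimate was 2.14 (SE 0.15, limma adjusted p = 0.00914). H2bc12 was 0 and 3.70, 6.79 and 18.4, and 18.1 and 45.5 FPKM in the same order (1.61, SE 0.20, limma adjusted p = 0.0483). H3c8 was 0.406 and 2.07, 2.32 and 6.29, and 17.3 and 33.2 (1.05, SE 0.10, limma adjusted p = 0.0259). In these 3 genes the cKO library was the higher in 3 of 3 populations.

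H2bc15 went the other way. It stood at 45.6 FPKM in WT and 28.5 in cKO among naive cells, at 54.3 and 38.6 among fresh nTregs and at 89.2 and 60.2 after stimulation. The WT library was the higher in 3 of 3 populations (-0.57, SE 0.065, limma adjusted p = 0.0433). H4c11 (Hist1h4j), an H4 gene, was also lower in every cKO library, at 8.22 and 1.56, 8.41 and 7.22, and 19.1 and 8.26 FPKM, and did not pass the test (-1.05, SE 0.29, limma adjusted p = 0.272). H3c1 was 13.4 and 8.68, 23.5 and 16.6, and 24.5 and 36.9, so its direction differed between populations.

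The H4 gene H4c9 (Hist1h4i) had an estimate as large as that of H2bc13 with a wider error. It was 8.98 and 20.1 FPKM among naive cells, 9.25 and 43.3 among fresh nTregs and 7.60 and 76.7 after stimulation (2.12, SE 0.36, limma adjusted p = 0.114). The WT values stayed between 7.60 and 9.25, and the cKO values differed from library to library. H4c6 was 15.3 and 27.2, 46.7 and 84.2, and 107 and 334 FPKM (1.09, SE 0.17, limma adjusted p = 0.0998), and H4c1 was 35.8 and 61.6, 60.5 and 98.3, and 65.4 and 173 (0.95, limma adjusted p = 0.0912). The H2A gene H2ac4, at 1.56 and 8.27, 9.23 and 13.4, and 14.2 and 51.7, had an estimate of 1.38 (SE 0.27, limma adjusted p = 0.153).

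The 4 calls depended on the populations included and on the pseudocount. Leaving out 1 library takes its whole population out of the genotype estimate, since the population term then takes up the other library. The members' median estimate was 0.68 without either naive library, 0.55 without either fresh nTreg library and 0.35 without either stimulated library. The median of all genes was at most 0.02 in these fits, and the members called changed between them. H2bc12 was the 1 member called at a pseudocount of 5 and H2bc13 the 1 called at 0.1. With no filter on low values limma called none of the 62 members then tested. At an unadjusted p under 0.05 in that limma fit, 29 members were higher and 2 lower, where 1406 of 21218 genes passed in either direction.

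**Figure D3:**
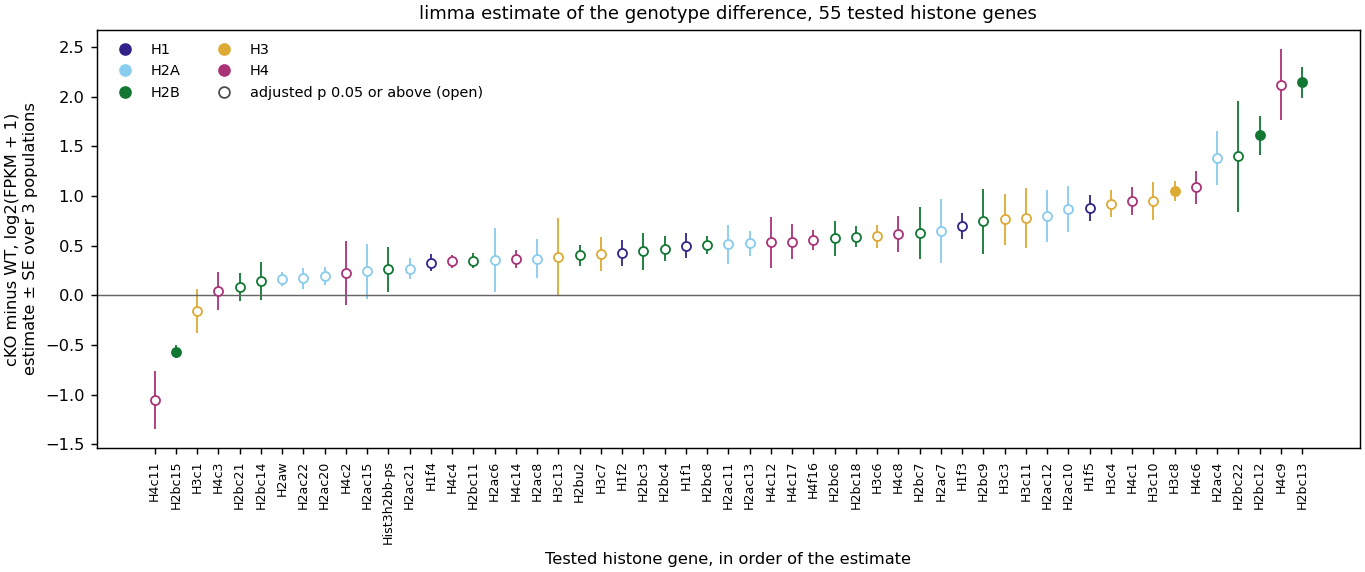
limma estimate of cKO minus WT (vertical axis, log2(FPKM + 1), bars ± SE) for the 55 tested histone genes in order of the estimate, coloured by class, with filled points for an adjusted p under 0.05. The filled points are H2bc15 at -0.57, H3c8 at 1.05, H2bc12 at 1.61 and H2bc13 at 2.14, and 52 of the 55 points lie above 0.

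**Figure D4:**
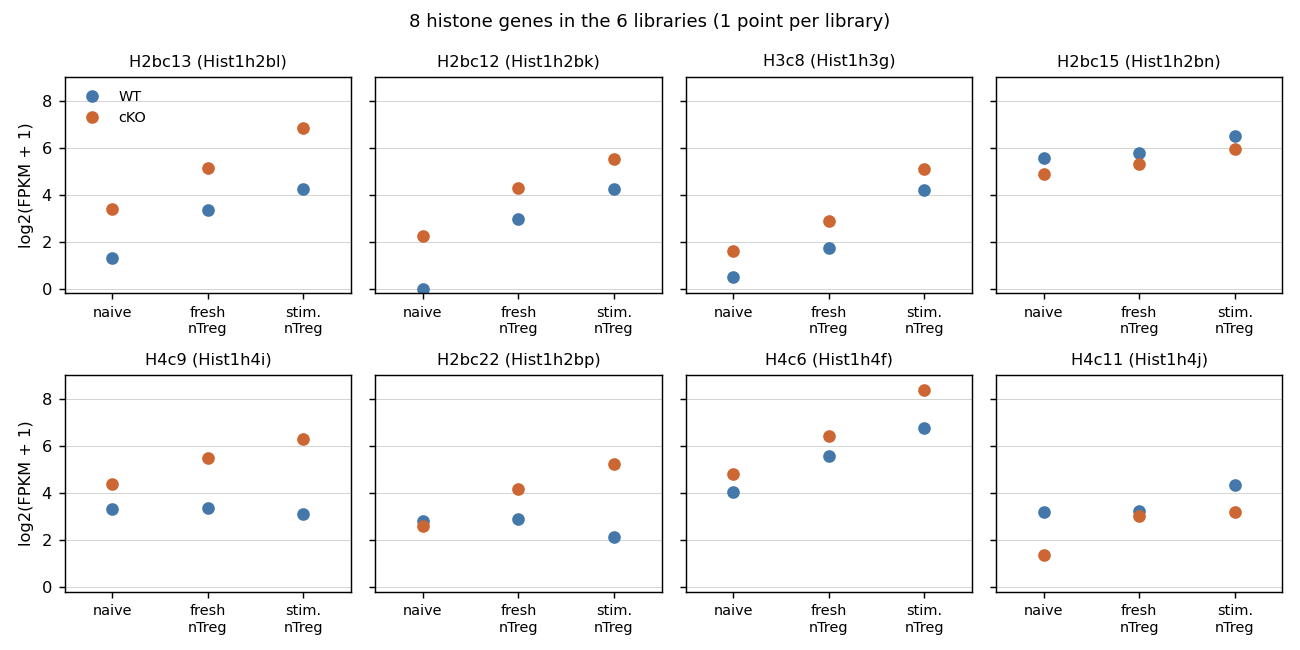
Level of 8 histone genes as log2(FPKM + 1) (vertical axis) in naive CD4 T cells, fresh nTregs and stimulated nTregs (horizontal axis), 1 point per library, WT in blue and cKO in orange. H2bc13, H2bc12, H3c8, H4c9 and H4c6 are higher in cKO in every population, H2bc15 and H4c11 are lower, and H2bc22 is higher in cKO in both nTreg states.

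Within single populations the number of histone genes at least 2-fold apart in FPKM + 1 was 6 for naive cells, 11 for fresh nTregs and 24 after stimulation, with no test. Among naive cells 5 of the 53 members compared passed 2-fold upwards in cKO and 1 downwards, where 0.661% of all genes were higher and 0.536% lower. The 5 were H2bc12, H2bc13, H2ac4, H3c8 and H4c9, and the lower gene was H4c11. The members' median was 0.18, and 35 of 53 were higher in cKO, where 49.8% of all genes were.

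Among fresh nTregs 11 of 55 members passed 2-fold upwards in cKO and none downwards, where 0.634% and 0.395% of all genes were. The largest differences were those of H4c9 (2.11), H2bc13 (1.79), the H3 gene H3c13 (Hist2h3b, 0.643 to 4.07 FPKM), H2ac10 (1.08 to 4.54) and H2bc12 (1.32). They were followed by H2bc22 (Hist1h2bp, 6.37 to 17.0), H2bc7 (5.76 to 15.2) and H3c10 (Hist1h3h, 2.69 to 7.79). H3c13 stood on an estimated 2.0 fragments in WT and 11.8 in cKO, and H2ac10 on 3.4 and 13.3. The members' median was 0.47.

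Among stimulated nTregs 23 of 57 members passed 2-fold upwards in cKO and 1 downwards, where 1.21% and 0.693% of all genes were. H4c9 (3.18) and H2bc22 (3.33 to 36.3 FPKM, 3.11) had the largest differences, followed by H2bc13 (2.59), H2bc9 (Hist1h2bh, 30.5 to 109), H2ac4 (1.79), H2ac7 (1.12 to 5.78), H3c11 (13.9 to 45.6) and H4c6 (1.63). H2ac7 stood on an estimated 3.0 fragments in WT and 19.7 in cKO. The lower gene was H4c11 (-1.11). The members' median was 0.87, and 53 of 57 were higher in cKO, where 55.2% of all genes were. Over the 3 populations together, 33 of the 55 tested members were higher in cKO in each of them, where 19.6% of all genes were. The 2 members lower in each of them, where 16.7% of all genes were, were H2bc15 and H4c11.

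The log2 difference from fresh to stimulated nTregs was higher in cKO than in WT for 42 of 57 members, where it was for 55.2% of all genes. The sign is kept in this count, so a gene that fell less in cKO is included. The difference of the 2 responses has no test with 1 library per group. From fresh to stimulated nTregs 23 of 56 members were at least 2-fold higher in WT, where 6.39% of all genes were, and 32 of 56 in cKO, where 6.79% were. H2ac7 was the 1 member at least 2-fold lower in WT, where 7.34% of all genes were, and none was in cKO, where 7.02% were. In WT the values of H2ac7 stood on an estimated 13.9 fragments in fresh and 3.0 in stimulated nTregs. H4c12, an H4 gene, went from 45.1 to 93.5 FPKM in WT and from 58.4 to 241 in cKO. H2bc9 went from 26.3 to 30.5 in WT and from 37.3 to 109 in cKO. H1f5 showed no such gap, with 14.3 to 51.0 in WT and 32.1 to 105 in cKO. The same stimulated libraries enter the comparison of genotypes above, so the counts are not independent of each other.

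Histone genes of chromosome 13 lie in blocks separated by gaps of over 150 kb, and the FPKM sums of the blocks differed in their ratio of cKO to WT. The block of 5 genes at chr13:22035122-22043658, from H2ac12 to H2bc11, summed to 13.02 FPKM in WT and 30.1 in cKO among naive cells, to 31.0 and 81.8 among fresh nTregs and to 71.9 and 189 after stimulation. The log2 ratios of these sums were 1.21, 1.40 and 1.39. Among the 5 genes H4c9 held 9.25 of 31.0 FPKM in WT and 43.3 of 81.8 in cKO fresh nTregs. After stimulation it held 7.60 of 71.9 and 76.7 of 189, so much of the cKO excess in nTregs lay in 1 gene. In naive cells H2bc12, another of the 5, was listed at 0 in WT and 3.70 FPKM in cKO. The 29 genes at chr13:23531044-23764412, from H4c8 to H1f1, summed to 1013 and 1156, 1378 and 1752, and 2093 and 3903 FPKM, with log2 ratios of 0.19, 0.35 and 0.90. The 18 genes at chr13:21715711-21837530, from H2bc13 to H4bc24, had log2 ratios of -0.14, 0.40 and 1.04. Outside chromosome 13, the 10 genes of chromosome 3 summed to 232 and 281, 211 and 297, and 512 and 803 FPKM.

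**Figure D5:**
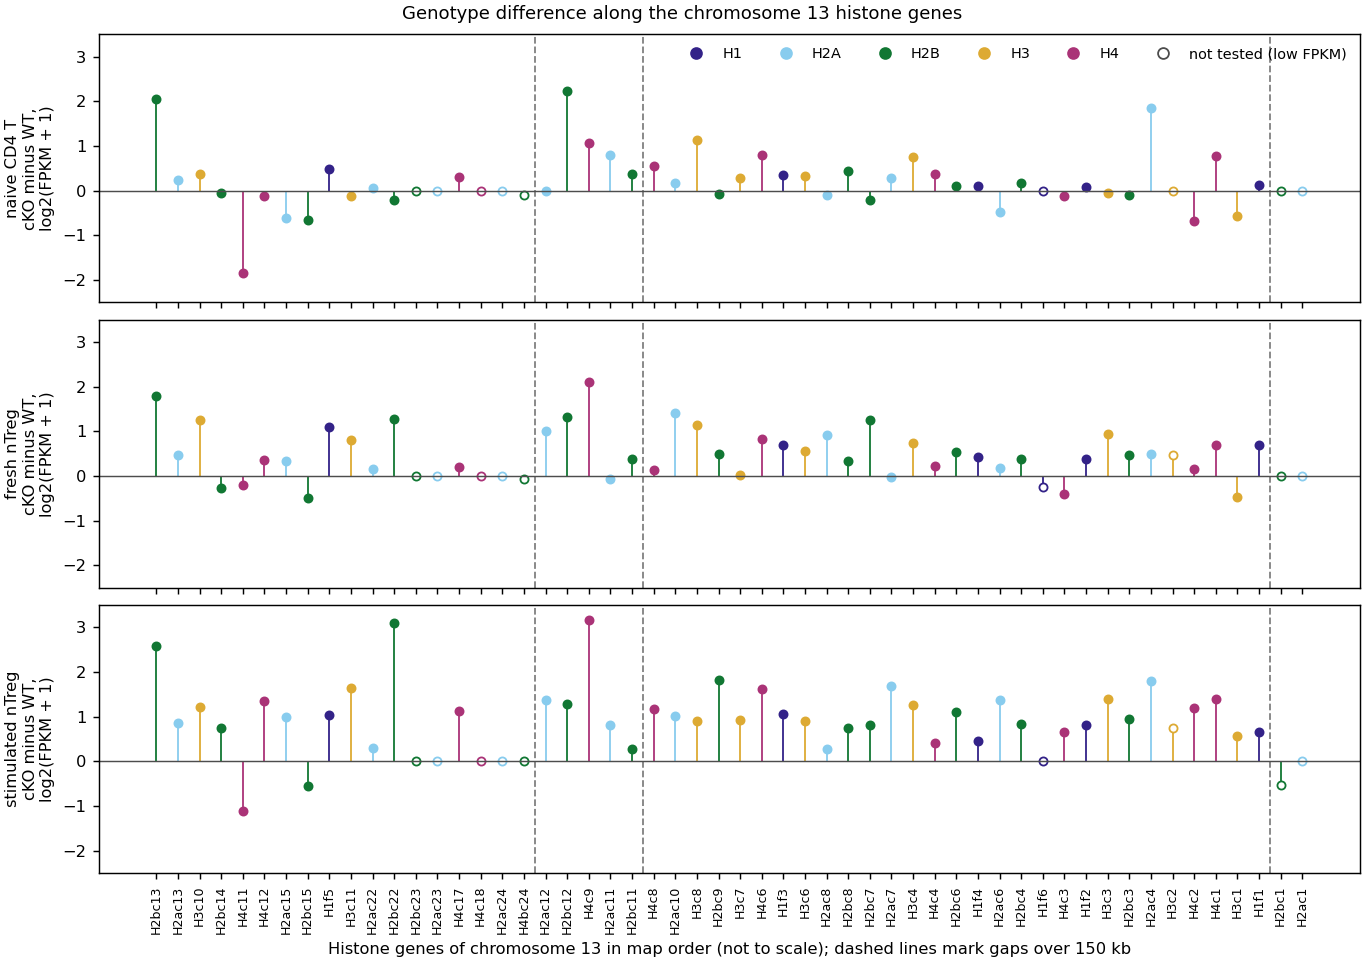
Difference of log2(FPKM + 1) between cKO and WT (vertical axes) for the 54 chromosome 13 histone genes in map order (horizontal axis, not to scale), with 1 panel per population, colours by class, open points for genes not tested and dashed lines at gaps over 150 kb. Upward stems outnumber downward ones in each panel, H4c11 and H2bc15 point down in all panels, and H2bc13, H2bc12 and H4c9 point up in all of them.

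H2A and H2B genes of the cluster stand in head-to-head pairs. Among the 62 member genes with a promoter sequence, 10 such pairs had starts within 1000 bases of each other. Genes without one, such as H2bc4, were not searched. Both genes were too low to be tested in the pairs of H2ac1 and H2bc1, H2ac23 and H2bc23, and H2ac24 and H4bc24. In the other pairs the 2 genes did not always share 1 size of genotype difference. H2bc13 and H2ac13 start 229 bases apart, and H2ac13 was 11.8 FPKM in WT and 14.0 in cKO among naive cells, 11.2 and 15.9 among fresh nTregs and 28.4 and 52.6 after stimulation. Its differences were 0.23, 0.47 and 0.87, against 2.05, 1.79 and 2.59 for H2bc13. H2ac15 and H2bc15 start 164 bases apart and were alike in naive cells (-0.60 and -0.66), but differed in sign in both nTreg states, with 0.34 and 0.99 for H2ac15 and -0.48 and -0.56 for H2bc15. H2ac12 and H2bc12, 178 bases apart, were alike in nTregs, with 1.01 and 1.37 for H2ac12 and 1.32 and 1.28 for H2bc12. In naive cells H2ac12 was listed at 0 in both libraries.

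Many of these genes are near copies, so the value of a single gene is uncertain where the counting could split fragments between copies. How fragments that match several genes were assigned is not given in the sources used here. Of the 67 members with an annotated coding sequence, 53 shared over 50% of their 50-base stretches with another gene and 5 shared none. The share was 82.8% for H2bc13, 95.2% for H2bc12, 86.4% for H2bc15 and 71.8% for H3c8. H2bc13 and H2bc15, which moved in opposite directions, share 45.8% of these stretches. The 5 genes without shared stretches were H1f1, H1f5, H1f6, H2bc21 and H4f16 (Hist4h4). H2bc21 was 3.65 and 5.19, 2.04 and 1.98, and 2.13 and 1.86 FPKM (genotype estimate 0.08, limma adjusted p = 0.844), lower in cKO in both nTreg states. H1f1 was 13.1 and 14.4, 19.97 and 33.1, and 43.2 and 69.3 FPKM (0.50, limma adjusted p = 0.243). H1f5 was 6.88 and 10.1, 14.3 and 32.1, and 51.0 and 105 FPKM (0.88, limma adjusted p = 0.0912), and H4f16 was 54.4 and 73.9, 53.5 and 70.6, and 47.6 and 86.4 FPKM (0.56, limma adjusted p = 0.131).

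Values were also summed over genes of the same protein, which leaves sharing with genes of other proteins in place. H2bc13, for example, shared 72.0% of its stretches with H2bc23 and 53.0% with H2bc7, which encodes the same protein. The 4 genes of the H2B protein made from H2bc7, H2bc11, H2bc13 and H2bc15 summed to 57.1 FPKM in WT and 48.6 in cKO among naive cells, to 80.4 and 102 among fresh nTregs and to 159 and 246 after stimulation. Their log2 ratios were -0.23, 0.35 and 0.62. The 12 listed genes of the common H4 protein summed to 557 and 682, 720 and 858, and 1193 and 2261 FPKM, with ratios of 0.29, 0.25 and 0.92. The H3.1 genes (H3c1, H3c8, H3c10 and H3c11) had ratios of -0.16, 0.40 and 1.08, and the 8 H3.2 genes 0.30, 0.62 and 1.10.

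The lists of genes that act on histone supply had lower medians after stimulation than the histone genes' 0.95, and their counts stand beside 22.5% of all tested genes that rose and 27.3% that fell. Of the 12 transcription factors and cell cycle switches of histone genes, 6 rose and 2 fell after stimulation (median 0.34), the largest differences being Ccne2 (1.24) and Ccne1 (1.05), the E cyclins, E2f2 (-1.08) and E2f1 (0.71). Npat, the coactivator of histone genes that cyclin E and CDK2 phosphorylate, was chosen after its values were seen and went from 10.9 and 11.6 to 14.6 and 14.8 FPKM (limma adjusted p = 0.0229). Of the 17 tested genes of histone mRNA 3′ end processing, 7 rose and 1 fell (median 0.15), led by Ncbp2 (0.91) and Cstf3 (0.62). Slbp, the stem-loop binding protein, also chosen afterwards, was 43.5 and 50.1 FPKM in fresh and 46.4 and 56.7 in stimulated nTregs and did not pass the test (limma adjusted p = 0.384). In translation and decay of histone mRNA 2 of 12 rose and 3 fell (median -0.19), with Eri1, an exonuclease that trims the stem-loop, at 0.68 and Smg1 at -0.57.

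Of the 21 histone chaperone genes 11 rose and 5 fell after stimulation (median 0.45), and the largest rises were those of Asf1b (1.53), Chaf1a (1.35) and Nap1l1 (0.93), which escort histones to chromatin. Of the 9 tested genes of replication-independent histones none rose and 3 fell (median -0.15). These were H3f3b (497 and 498 FPKM before and 280 and 323 after stimulation), H3f3a and Cenpa, where H3f3a and H3f3b encode H3.3 and Cenpa the centromeric H3. Of genes of DNA replication, 18 of 22 S phase genes rose and 1 fell (median 1.24), with Ccna2 at 2.54, Rrm2 at 1.95 and Mcm6 at 1.93. All 16 mitosis genes rose (median 1.69), with Ube2c at 2.69 and Top2a at 2.35. The part of cell cycle entry in the histone values was not tested.

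Between fresh nTregs and naive cells, 7 of 22 S phase genes were higher and 1 lower (median 0.31), and 12 of 16 mitosis genes were higher (median 0.96), with Mki67, a marker of cycling cells, at 2.26. Beside 16.5% of all genes that were higher and 14.7% that were lower, 2 of 12 transcription factors and switches were higher (E2f3 at 0.83 and E2f2 at 0.77) and none was lower. Of the 17 processing genes 2 were lower, Cstf2t and Srrt, and 5 of 21 chaperones were lower, the largest being Nasp (-0.67) and Daxx (-0.61). Of translation and decay 1 was higher, Mif4gd (0.82), and 1 lower, Lsm4 (-0.48). Replication-independent histones held 2 higher genes, H1f0 (1.77) and H2az1 (1.05), and 2 lower ones, H2aj (-0.83) and H3f3a (-0.28).

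With the cKO genotype 1 gene of these 7 lists passed the test, where 0.258% of all tested genes rose and 0.116% fell. It was Top2a, a topoisomerase of dividing cells, at 4.87 and 7.57 FPKM among naive cells, 10.8 and 19.0 among fresh nTregs and 57.3 and 105 after stimulation (0.72, SE 0.086, limma adjusted p = 0.0433). All 16 mitosis genes had an estimate above 0 (median 0.37), as had 21 of 22 S phase genes (median 0.27), where 53.8% of all genes had. The medians of the other lists were 0.14 for transcription factors and switches, 0.12 for chaperones, 0.08 for replication-independent histones, 0.05 for translation and decay and 0.03 for 3′ end processing, against 0.01 for all genes and 0.52 for the replication-dependent histones. The summed FPKM of the S phase list was 525 in WT and 497 in cKO among naive cells, 469 and 521 among fresh nTregs and 771 and 1043 after stimulation. That of the mitosis list was 20.3 and 24.1, 50.4 and 76.4, and 212 and 353. These lists were higher in cKO in both nTreg states, and their part in the histone difference was not tested.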

How the data were processed

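Total RNA of 6 mouse T cell libraries was measured. Per the labels' protocols, libraries were strand-specific, made from 322 ng of RNA after ribosomal RNA depletion with 12 PCR cycles. The submitters' processing notes name TopHat, Cuffdiff, Cuffnorm and the mm10 build (versions not given in the sources used here). The deposited values are FPKM per RefSeq transcript, scaled by the authors with Cuffnorm. As a relative unit without counts, FPKM was tested on the log scale and not with a count model.

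Of 32860 rows, 165 transcripts listed more than once were counted once, which left 32547. RefSeq (GRCm38.p6) named 32101, and FPKM was summed per gene. limma 3.58.1 (R 4.3.3) was fitted to log2(FPKM + 1) with population and genotype terms and an intensity trend, over the 11224 genes that reached 1 FPKM in 2 or more libraries. The fit has 2 residual and 4.02 prior degrees of freedom and was checked on simulated data. Adjusted p under 0.05 (Benjamini-Hochberg) was called. Within a population, genes reaching 1 FPKM in either library were compared, without a test. Fragments were estimated from steps between low values (1 fragment per kb worth 0.104 to 0.134 FPKM), and intervals cover counting error only.

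Members and lists were chosen with earlier results of these data known. Named are members called in any limma comparison, the 3 highest of each class, the 8 largest genotype differences of each population, and up to 4 list genes of largest difference. H1f6, H2ac1, H2bc1, H4f16, Npat and Slbp were added after their values were seen. Alternatives were other pseudocounts, filters and scalings, no trend, each library left out, sums without the top gene, and, chosen after seeing the data, only transcripts with a deposited symbol.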

Additional observations from a re-analysis of the deposited data

Results flagged for a closer look

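With stimulation 12 histone genes went in opposite directions in WT and cKO nTregs, 9 of them downwards in WT and upwards in cKO, and the 5 whose responses lay at least 1 apart on the log2 scale are given first. The share of all genes with opposite directions was not counted, so the 12 cannot be called particular to histone genes. The difference between the genotypes was not tested, since each response is 1 library against 1. H2bc22 was 6.37 FPKM in fresh and 3.33 in stimulated WT nTregs and 17.0 and 36.3 in cKO, a log2 difference of -0.77 in WT and 1.05 in cKO. H4c9 was 9.25 and 7.60 in WT and 43.3 and 76.7 in cKO (-0.25 and 0.81). H4c3 was 186 and 153 in WT and 140 and 242 in cKO (-0.28 and 0.79). H2ac7 was 4.08 and 1.12 in WT, on an estimated 13.9 and 3.0 fragments, and 3.998 and 5.78 in cKO (-1.26 and 0.44). H2ac6 (Hist1h2ac) was 12.8 and 6.86 in WT and 14.6 and 19.3 in cKO (-0.81 and 0.39). The others with a lower value in WT were H3c7 (-0.43 and 0.47), H3c11 (-0.04 and 0.79), H4f16 (-0.17 and 0.29) and H1f2 (-0.20 and 0.22), and the 3 with a higher value in WT were H2ac8 (0.45 and -0.17), H2ac21 (0.16 and -0.24) and H2bc21 (0.05 and -0.06). The first 5 genes share coding stretches with other histone genes, and the part of shared fragments was not tested.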

How the results depend on the processing

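The 3 members called higher with the cKO genotype became 1 at a pseudocount of 0.1, 1 at a pseudocount of 5, 0 with no filter on low values, and 5 with an equal FPKM sum per library, and 2 to 14 with 1 library left out. The 1 called lower became 0 at either pseudocount, with no filter and without the trend, and 0 to 1 with 1 library left out. The 31 members called higher after stimulation became 48 with an equal FPKM sum and 26 to 42 with 1 library left out. The 1 called lower became 2 with deposited symbols only and 1 to 4 with 1 library left out. The 19 called higher in fresh nTregs than in naive cells became 30 with an equal FPKM sum and 16 to 33 with 1 library left out, and the 1 called lower became 0 with no filter or a minimum FPKM of 5 and 0 to 3 with 1 library left out. At a pseudocount of 5 the members at least 2-fold higher in cKO fell to 2 for naive cells and 2 for fresh nTregs, and the 1 lower in stimulated nTregs became 0. It became 2 at a pseudocount of 0.1, and at a minimum FPKM of 5 the naive count was 3.

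For the summed FPKM of all members, the log2 ratio of cKO to WT in stimulated nTregs was 0.73 with an equal FPKM sum and 1.00 without the top gene of each class. That of stimulated to fresh nTregs was 1.33 and 1.68 in WT and cKO with an equal FPKM sum, 0.76 and 1.22 with median ratio scaling and, in cKO, 1.26 without the top genes. That of fresh nTregs to naive cells was 0.55 and 0.74 with an equal FPKM sum and 0.46 and 0.69 without the top genes. None of these ratios changed sign. H2bc4 reversed after stimulation, from 0.95 to -0.68, with deposited symbols only, since that leaves out its more abundant transcript. The cause of the other changes was not tested. No paired analysis was possible because the labels carry no replicate numbers to pair beyond the population, which is already a term of the limma fit. Genes at a few FPKM stand on few fragments (3 fragments on a 480 nt transcript give 1.04 to 1.34 FPKM), which limits single members more than sums.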

Other observations

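H2bc4, H2bc6 and H2bc22 are listed with more than 1 transcript, and the table splits their FPKM unevenly. In H2bc4 the transcript without a deposited symbol stood at 25.7 FPKM (WT) and 37.4 (cKO) before stimulation and 48.7 and 92.6 after it, and the other at 5.72 and 4.18, then 3.85 and 1.79. In H2bc6 the transcript without a symbol held 161 of 165 FPKM in cKO fresh nTregs and 309 of 312 in cKO stimulated nTregs. In H2bc22 it held all of the value, the other transcript being listed at 7.56e-07 to 7.09e-06 FPKM.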
